A study of Gallus gallus with 12 samples.

Results

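Mitosis and kinetochore genes are described here by 43 genes of the chicken, out of 13009 genes that the annotation of the array names by a single symbol. They were chosen by name, from a list of 50 genes for kinetochore proteins, spindle checkpoint proteins, mitotic kinases and cyclins, spindle motors, and the factors that condense, separate and divide the chromosomes. Of the 50 listed names, 40 were found by their symbol and 4 through a synonym, which gave CENPC for CENPC1, KIF4B for KIF4A, PTTG2 for PTTG1, and CCNB1 for CCNB2. The listed CCNB1 and CCNB2 therefore fell on 1 annotated gene, and which B-type cyclin its probe set reads was not settled. The probe set named AURKB here carries the name AURKA in the study's own annotation, so which Aurora kinase it reads was not settled either. SPC24, CENPA, AURKA under its own symbol, CDCA8, NCAPH and ESPL1 were not matched and were not analysed here.

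The chick chorioallantoic membrane (CAM), the richly vascularized membrane through which the embryo exchanges gases, was sampled from embryos of typical development at embryonic days E5, E7, E10 and E14. At E5 the tissue was the allantoic vesicle, which the study also calls CAM. Comparisons with E5 therefore set the vesicle against the later membrane, and the part of this difference in the results was not tested. Each stage had 3 CAMs from 3 embryos, each hybridized to its own Affymetrix chicken array, for 12 arrays, and neither the strain nor the sex of the embryos is given in the sources used here. Values are signals, probe set intensities that the authors computed and scaled so that the trimmed mean of every array was 100. The question was how the expression of these genes moved while the membrane grew and matured.

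A cell that enters mitosis condenses its chromosomes, builds a bipolar spindle of microtubules, and attaches each sister chromatid to it through a kinetochore, the protein plate that forms on the centromere. The spindle checkpoint holds the cell until every kinetochore is attached, after which CDC20 switches on the anaphase promoting complex, the cyclins and securin are destroyed, and the sisters part. Transcripts of most of these proteins are known to be made mainly in dividing cells, peaking late in the cycle, so that they are widely used as marks of proliferation.

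The 12 arrays had median signals of 24.4 to 33.6, except E7 replicate 3 at 48.6. That array also correlated least with its own stage (mean r = 0.830, against 0.877 and 0.876 for the other E7 arrays), and the counts, medians and contrasts of the steps into and out of E7 are given with and without it further on. Signals of the 3′ over the 5′ actin control probe set, a ratio that grows as RNA is shortened, were 1.26 to 1.50 at E5, 1.51 to 1.66 at E10 and 2.21 to 3.43 at E14. At E7 the ratio was 1.19 and 1.66 in replicates 1 and 2, and 2.76 in replicate 3. The same ratio of the GAPDH control moved less. It was 0.921 to 0.9805 at E5, 0.9263 to 1.0083 at E7, 1.0129 to 1.0993 at E10 and 1.1945 to 1.2953 at E14. By GAPDH, E7 replicate 3 had the highest ratio of its stage, 1.0083, but lay below all E10 arrays. The summed signal of 13 leukocyte markers was 418 to 579 at E5, 872 to 1004 at E7, 1268 to 1516 at E10 and 4746 to 7041 at E14, and 10 of 11 tested rose from E5 to E14. That of 19 epithelial markers was 14940 to 20500, 20070 to 27140, 23300 to 25080 and 40270 to 46320 at the same stages (12 of 17 rose, 1 fell), and that of 15 endothelial markers 3188 to 4691, 6605 to 8500, 6991 to 10910 and 7805 to 10700 (9 of 13 rose). Of erythroid markers 7 of 14 rose and 2 fell, and of mural markers 6 of 8 rose. The share of all genes that rose from E5 to E14 was not counted, so whether these marker counts exceed it is not known. In none of these lists was a gene under a signal of 20 in all arrays. Of the 10 leukocyte markers that rose, LYZ and C1QA passed the filter on low signals through E14 alone. Their rise is therefore no support. Whether other markers passed that filter through a single stage was not counted. The part of RNA length and of these cell types in the results that follow was not tested. In RNA of a whole membrane, moreover, fewer dividing cells and less of these transcripts per cell cannot be told apart.

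All 43 genes had lower mean log2 signals at E14 than at E5. From E5 to E14, 40 of the 43 fell, that is, passed an adjusted p under 0.05 with a fold over 2 in limma, and none rose (0 at an unadjusted p under 0.05), whereas 14.1% of all 8988 genes tested fell. The 40 include SPC25, the only gene that passed the filter on low signals through E5 alone, so that its fall is no support, and without it 39 of 42 fell. The remaining 3 genes, PRC1, NUSAP1 and INCENP, passed the adjusted p but not the fold, so that all 43 were lower at that looser limit, which 21.2% of all genes met. The 3 E5 arrays lay above the 3 E14 arrays for each of the 43 genes, a separation shown in this direction by 28.2% of all genes. The median log2 change was -1.79, or 3.47-fold, beside 0.02 over all genes. Folds ran from 1.61 for PRC1 to 9.40 for KIF20A, with 13 genes above 4-fold and 16 below 3-fold. The means fell at every step for 41 of the 43, and the exceptions were SPC25 and TPX2. This pattern was not counted over all genes. Each gene is read by its brightest probe set. All 43 had passed the filter for low values (35 or more in all 3 arrays of a stage) at E5, and 39 of them also passed it at E14.

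**Figure D1:**
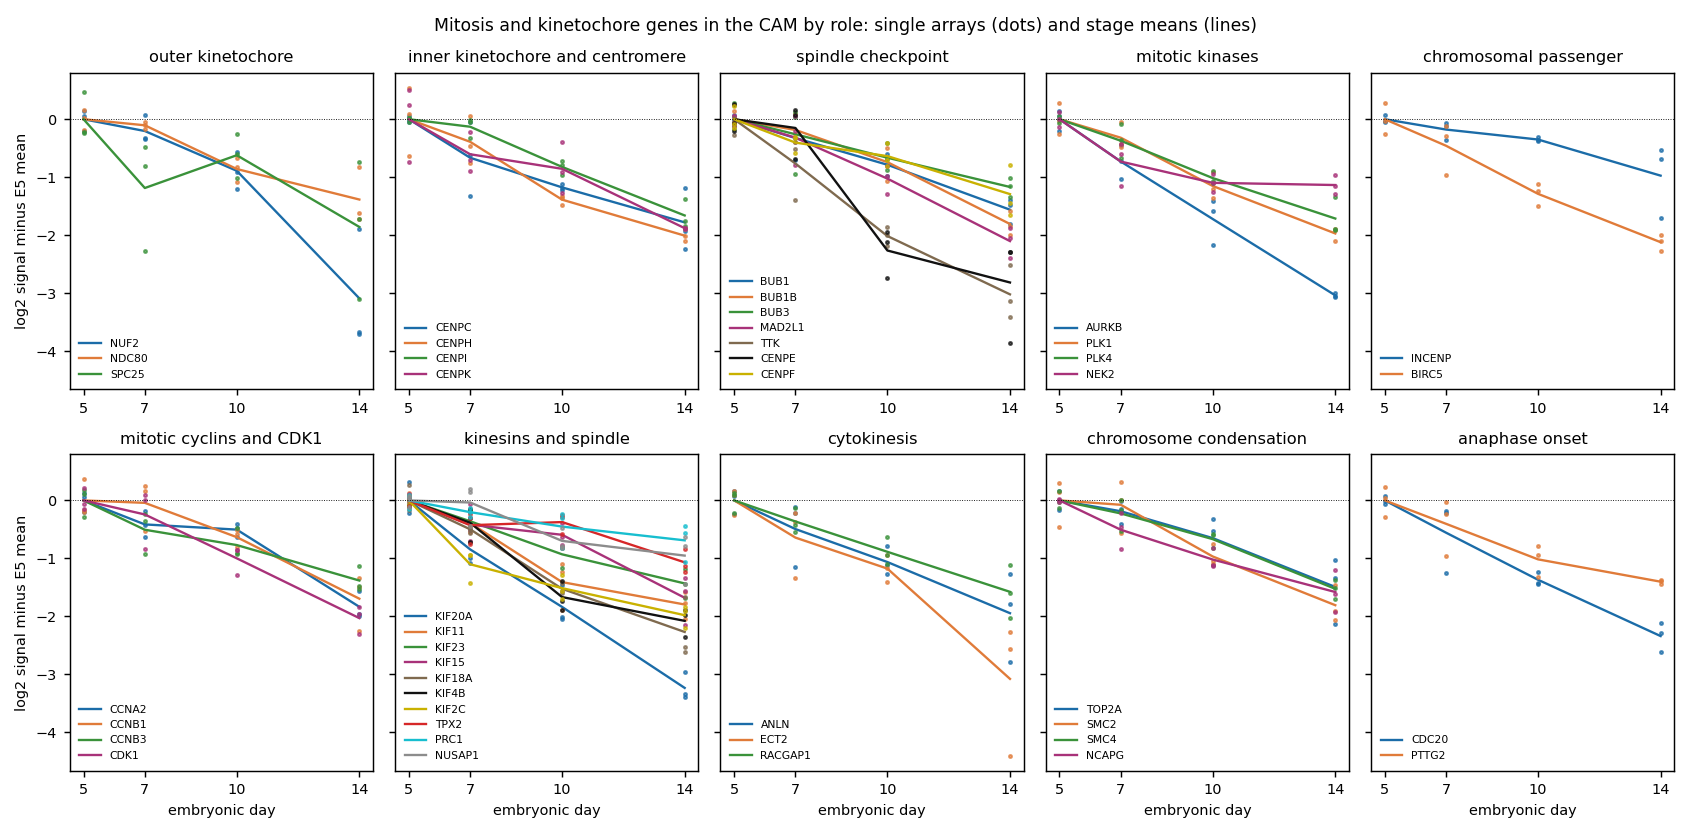
Log2 signal minus the gene's E5 mean (y axis) against embryonic day (x axis) for 43 genes in 10 role groups, with 1 dot per array (3 per stage) and lines through the stage means. All lines end below the dotted line of their E5 mean, at -0.69 for PRC1 to -3.23 for KIF20A, and those of SPC25 and TPX2 alone turn up between E7 and E10.

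Among the microtubule-binding proteins of the outer kinetochore, NUF2, a subunit of the NDC80 complex that grips the microtubule end, had signals of 953, 906 and 759 at E5, 692, 909 and 683 at E7, 589, 378 and 464 at E10, and 68.1, 233 and 67.0 at E14. Its arrays at E5 and E7 overlapped, while both later steps separated the arrays fully. The log2 change from E10 to E14 was -2.20 (SE 0.37, adjusted p = 0.00553), the steepest of the 43 genes in that step by their brightest probe sets, and E14 replicate 2 stood well above the other E14 arrays. NDC80, the subunit that names the complex, ranged from 228 to 289 at E5 and from 78.5 to 147 at E14 and fell over the whole period (log2 change -1.38, adjusted p = 0.000656), with no single step called by its brightest probe set. SPC25, a further subunit, had 3 of its 12 signals under 20, where log2 changes are unsteady. Its E5 arrays, 43.6 to 70.8, stayed above its E14 arrays, 5.98 to 30.8, and its log2 change from E5 to E14 was -1.86 (SE 0.64, adjusted p = 0.0338). That call was lost when any of the E5 arrays, E14 replicate 1 or E14 replicate 3 was left out.

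The inner kinetochore was represented by CENPC, CENPH, CENPI and CENPK, proteins of the complex that sits on centromeric chromatin throughout the cell cycle and carries the outer plate. All 4 fell from E5 to E14 and none in a single step. CENPI gave signals of 324, 312 and 326 at E5, 308, 317 and 257 at E7, 195, 164 and 186 at E10, and 124, 89.3 and 94.7 at E14, with E5 and E7 overlapping and each later stage below the one before. Its log2 change from E5 to E14 was -1.66 (SE 0.20, adjusted p = 3.09e-05), and from E10 to E14 it passed the adjusted p but not the fold (-0.84, SE 0.20, adjusted p = 0.0381). CENPH gave signals of 755, 1034 and 456 at E5, 734, 511 and 421 at E7, 277, 284 and 253 at E10, and 164, 175 and 190.2 at E14. CENPH was spread widely at E5 and narrowly at E14, and it changed by -2.01 (SE 0.27, adjusted p = 7.26e-05) from E5 to E14. For CENPK, a partner of CENPH, signals were 1045, 880.3 and 442 at E5, 634, 457 and 399.8 at E7, 567, 306 and 396 at E10, and 202, 199.6 and 203 at E14. The E14 arrays of CENPK lay close together and below all other arrays, and its change from E5 to E14 was -1.88 (SE 0.30, adjusted p = 0.000275). CENPC, which links the centromere to the outer plate, went from 279 to 297 at E5 down to 61.1 to 127 at E14 (log2 change -1.78, adjusted p = 0.000576).

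All 7 spindle checkpoint genes fell from E5 to E14. TTK, also called MPS1, the kinase that starts checkpoint signalling at unattached kinetochores, had signals of 474, 552 and 388 at E5, 357, 325 and 178 at E7, 102, 128 and 118 at E10, and 43.6, 82.2 and 53.1 at E14. Every stage of TTK lay below the stage before it with no overlap. It fell from E7 to E10 with a log2 change of -1.25 (SE 0.30, adjusted p = 0.0296) and from E5 to E14 with a log2 change of -3.02 (SE 0.30, adjusted p = 5.80e-06), an 8.11-fold difference. CENPE, a kinesin that carries chromosomes to the spindle equator and feeds the checkpoint, had signals of 314, 253 and 230.1 at E5, 164, 293 and 278 at E7, 61.0, 39.6 and 68.3 at E10, and 53.5, 18.1 and 54.0 at E14. CENPE thus kept most of its E5 signal at E7 and lost it by E10, with a log2 change of -2.11 (SE 0.40, adjusted p = 0.00849) that was the largest fall of the 43 genes from E7 to E10, while E10 and E14 overlapped. MAD2L1, the checkpoint protein MAD2 that binds and holds CDC20, had signals of 1821, 1823 and 1604 at E5, 1508, 1809.7 and 1006 at E7, 881, 1001 and 718 at E10, and 477, 423 and 334 at E14. MAD2L1 fell from E10 to E14 (-1.08, SE 0.23, adjusted p = 0.0191) and was not called from E7 to E10 (-0.71, adjusted p = 0.0930). Its arrays did not overlap in either of these steps.

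BUB1B, or BUBR1, which joins the inhibitor that keeps the anaphase promoting complex off, had signals of 637, 655 and 745 at E5, 566, 722 and 518 at E7, 324, 428 and 481 at E10, and 227, 169 and 189.7 at E14. Both of its later steps separated the arrays, and the last of them was a fall (-1.07, SE 0.21, adjusted p = 0.0132). BUB1, the kinase that recruits other checkpoint proteins, had signals of 682, 747 and 699 at E5, 564, 736 and 437 at E7, 470.3, 359 and 412 at E10, and 269, 202 and 256 at E14. BUB1 fell from E5 to E14 with a log2 change of -1.56 (SE 0.21, adjusted p = 7.77e-05) and in no single step. BUB3, the partner that brings BUB1 and BUBR1 to the kinetochore, had signals of 2198, 2914 and 2142 at E5, 2462, 2624 and 1239 at E7, 1300.4, 1792 and 1482 at E10, and 1188, 942 and 1081 at E14. It fell over the whole period with a log2 change of -1.17 (SE 0.26, adjusted p = 0.00274), 2.25-fold, the smallest fold of the group, and E7 replicate 3 lay below all 3 E5 arrays whereas the other E7 arrays lay among them. CENPF, a large protein of the outer kinetochore in late cell cycle, went from 125 to 162 at E5 down to 44.1 to 80.0 at E14 (-1.29, adjusted p = 0.00222).

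The 4 mitotic kinases all fell from E5 to E14. Aurora A builds the spindle poles, and Aurora B corrects faulty attachments of chromosomes. For the Aurora kinase annotated as AURKB, signals were 2152, 2017 and 1689 at E5, 1179, 1426 and 956 at E7, 647, 728 and 435 at E10, and 231, 245 and 235 at E14. Each stage lay below the one before without overlap, and the E14 arrays lay close together. The change from E5 to E14 was -3.04 (SE 0.22, adjusted p = 5.38e-07), an 8.21-fold difference with the smallest adjusted p of the 43 genes. It fell from E10 to E14 with a log2 change of -1.32 (SE 0.22, adjusted p = 0.00488), and from E7 to E10 it passed the adjusted p but missed the fold narrowly (-0.99, SE 0.22, adjusted p = 0.0195). PLK1, the Polo kinase that drives centrosome maturation and mitotic entry, had signals of 1382, 2023 and 1627 at E5, 1227, 1611 and 1184 at E7, 883, 650.0 and 724 at E10, and 439.7, 386 and 446 at E14. E5 and E7 of PLK1 overlapped and each later stage lay below. It passed the adjusted p but not the fold in the last 2 steps (-0.83 and -0.82), and its change from E5 to E14 was -1.97 (SE 0.20, adjusted p = 7.37e-06). PLK4, the kinase that controls centriole duplication, had signals of 288, 299.6 and 313 at E5, 233, 285 and 188 at E7, 161, 144 and 141 at E10, and 118, 80.1 and 81.2 at E14. Its 4 stages did not overlap, and it fell only over the whole period (-1.71, SE 0.23, adjusted p = 6.13e-05). NEK2, which loosens the link between centrosomes, had signals of 343 to 411 at E5, 158 to 195 at E10 and 154 to 193 at E14, with a change of -0.04 in the last step (adjusted p = 0.945).

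Of the chromosomal passenger complex, which guides Aurora B to centromeres and then to the midzone, BIRC5 (survivin) had signals of 531, 769.7 and 622 at E5, 582, 520.1 and 324 at E7, 268, 291 and 225 at E10, and 148, 131 and 159 at E14. BIRC5 at E10 lay below every array of E5 and E7 and at E14 lower again, and it fell from E5 to E14 with a log2 change of -2.12 (SE 0.24, adjusted p = 1.54e-05). INCENP, the scaffold of the same complex, had signals of 703, 767 and 707 at E5, 565, 669 and 697 at E7, 583, 558 and 567 at E10, and 449, 223 and 503 at E14. INCENP passed the adjusted p from E5 to E14 but at 1.96-fold did not count as fallen (-0.97, SE 0.25, adjusted p = 0.00696), and E14 replicate 2 lay far below the other E14 arrays. Whether the changes of BIRC5 and INCENP differ was not tested.

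All 4 genes for cyclins and CDK1 fell from E5 to E14. CDK1, the kinase at the centre of mitotic entry, had signals of 2638, 3379.8 and 2785 at E5, 2946, 3125 and 1629.7 at E7, 1612, 1612 and 1199 at E10, and 819.8, 590.4 and 754 at E14. At E5 and E7 its arrays overlapped, apart from E7 replicate 3, which lay near the E10 arrays, and from E10 to E14 it fell with a log2 change of -1.03 (SE 0.25, adjusted p = 0.0349). CCNB1, a B-type cyclin that activates CDK1, had signals of 2398, 3449.5 and 2329 at E5, 2987, 3176 and 1862 at E7, 1787, 1889 and 1529 at E10, and 1066, 559.8 and 952 at E14. CCNB1 changed by -0.04 from E5 to E7 (adjusted p = 0.953) and fell from E10 to E14 (-1.06, SE 0.27, adjusted p = 0.0442). CCNA2, the A-type cyclin of S phase and early mitosis, had signals of 975, 1026 and 816 at E5, 697, 823 and 601 at E7, 675, 705 and 602 at E10, and 317, 235 and 241 at E14. E7 and E10 of CCNA2 overlapped (-0.09, adjusted p = 0.826), and all 3 E14 arrays lay far below, a log2 change of -1.33 (SE 0.19, adjusted p = 0.00208). CCNB3, a further B-type cyclin, went from 415 to 569.6 at E5 down to 175 to 231 at E14 and fell only over the whole period (-1.38, adjusted p = 0.000397).

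Kinesins and spindle proteins were the largest group, and 8 of its 10 genes fell from E5 to E14. KIF20A, a kinesin of the midzone needed for cytokinesis, had signals of 689.8, 755 and 996 at E5, 405, 580.0 and 382 at E7, 293, 199 and 195 at E10, and 79.1, 76.8 and 103 at E14. Its stages did not overlap at any step. The change from E5 to E14, -3.23 (SE 0.24, adjusted p = 6.95e-07), was the largest of the 43 genes, and it fell from E10 to E14 with a log2 change of -1.40 (SE 0.24, adjusted p = 0.00715). KIF4B, the annotated name of the chicken chromokinesin listed as KIF4A, which works on chromosome arms and the midzone, had signals of 1168, 1318 and 1262 at E5, 759.5, 1014 and 1130.0 at E7, 478, 375 and 338 at E10, and 316, 244 and 336 at E14. Its stages did not overlap either, and by this probe set the fall was called between E7 and E10 (-1.28, SE 0.21, adjusted p = 0.00388). Another KIF4B probe set of similar mean signal (712 against 728) was called from E10 to E14 instead (-1.02, adjusted p = 0.0205). KIF2C, a kinesin that takes microtubules apart at centromeres, had signals of 381, 358 and 402 at E5, 199, 197 and 142 at E7, 129, 117 and 156 at E10, and 102, 83.1 and 106 at E14. It was the only one of the 43 to fall from E5 to E7 (-1.10, SE 0.22, adjusted p = 0.0223), and E7 and E10 overlapped.

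KIF11, the motor that pushes spindle poles apart, had signals of 833, 712 and 754 at E5, 523, 683 and 555 at E7, 358, 205 and 325 at E10, and 224, 257 and 186 at E14. It fell from E7 to E10 (-1.02, SE 0.23, adjusted p = 0.021) and overlapped between E10 and E14. KIF15, which backs up KIF11 in spindle bipolarity, had signals of 353, 381 and 414 at E5, 269, 367 and 236 at E7, 293, 248 and 224 at E10, and 129.9, 86.6 and 151 at E14. KIF15 overlapped between E7 and E10 and fell from E10 to E14 (-1.09, SE 0.24, adjusted p = 0.026). Whether KIF11 and KIF15 differ in any step was not tested. KIF18A, a motor that dampens chromosome oscillations, had signals of 129, 166 and 122 at E5, 93.5, 96.5 and 103 at E7, 46.9, 45.6 and 51.4 at E10, and 22.6, 43.3 and 23.9 at E14, without overlap at any step. The fall of KIF18A was called over the whole period only (-2.27, SE 0.31, adjusted p = 7.80e-05). KIF23, a motor of the central spindle, had signals of 798, 849 and 857 at E5, 729, 742 and 508 at E7, 475, 370.0 and 479 at E10, and 369.5, 261 and 307 at E14, again without overlap and called only from E5 to E14 (-1.43, SE 0.21, adjusted p = 0.000113). TPX2, which activates Aurora A on spindle microtubules, had signals of 1198, 1338 and 1311 at E5, 1034, 1092 and 765 at E7, 861, 1071 and 1048 at E10, and 718, 547 and 582 at E14. E10 of TPX2 overlapped E7, with means of 993 ± 115 and 964 ± 174 (± SD, n = 3), and its change from E5 to E14 was -1.07 (SE 0.19, adjusted p = 0.00059), just past the fold, a call that was lost without E14 replicate 2. PRC1 and NUSAP1, which bundle microtubules, changed by -0.69 and -0.95 from E5 to E14 (adjusted p = 0.0256 and 0.00661), and neither was past the fold.

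**Figure D2:**
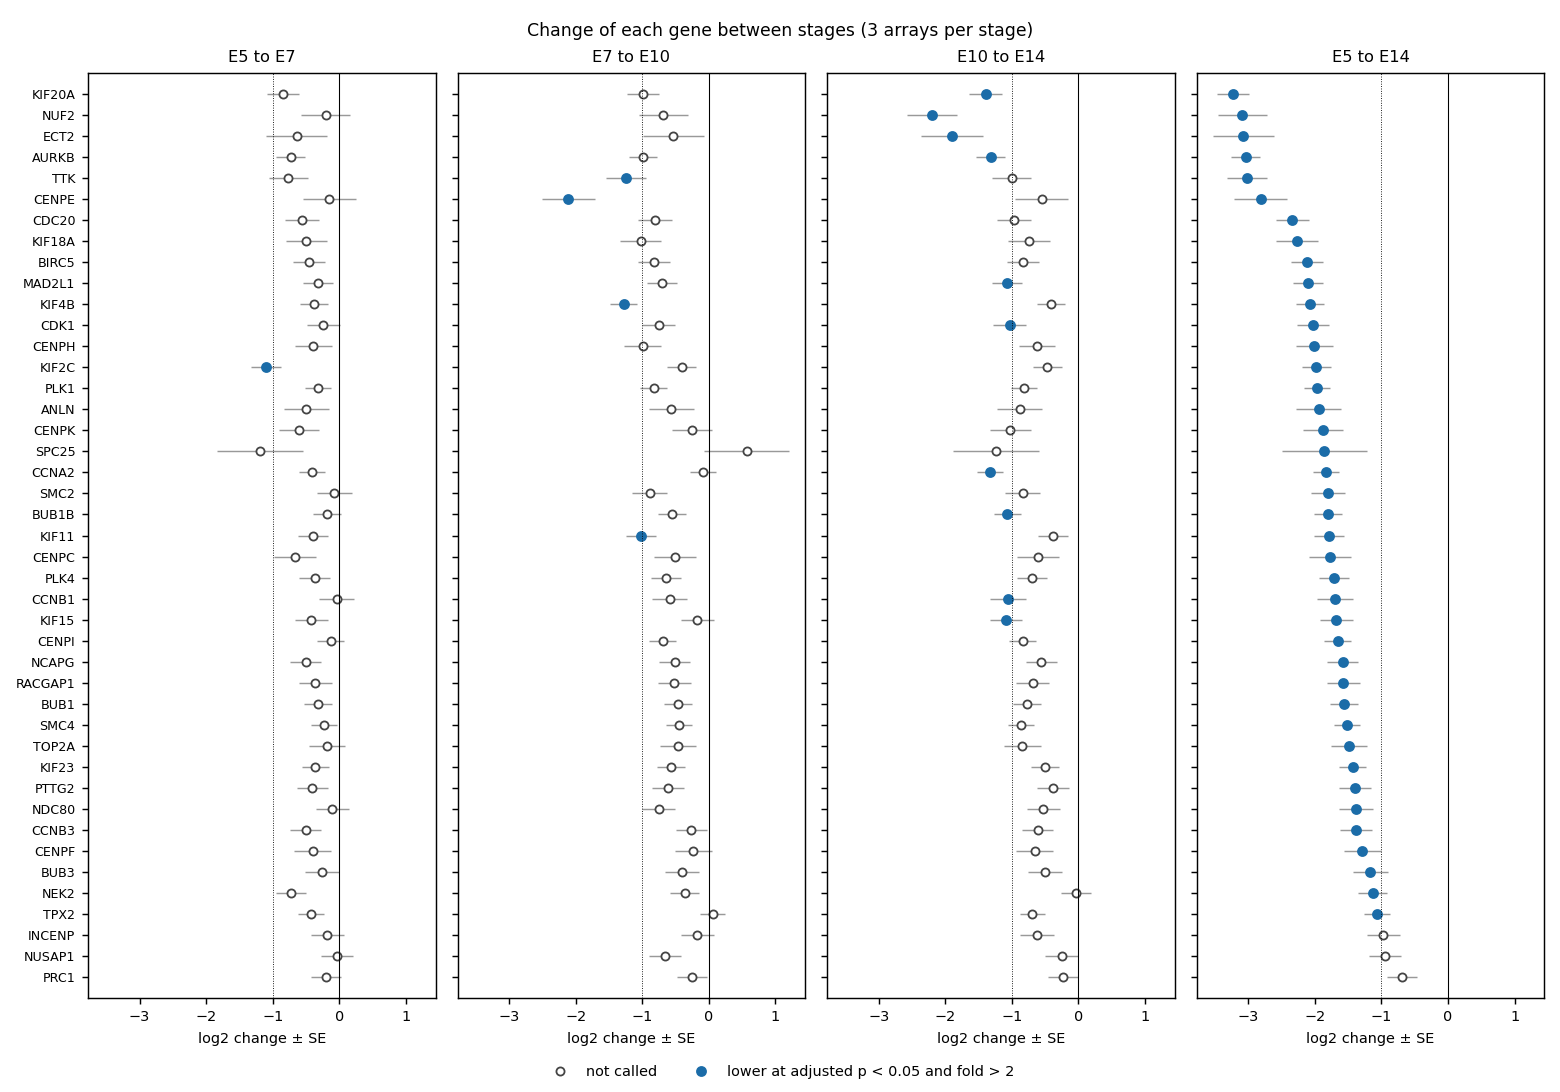
Log2 change ± SE (x axes) of each of the 43 genes (y axis, ordered by the change from E5 to E14) in the 3 steps and over the whole period, from 3 arrays per stage. Filled points, which passed both limits, number 1, 4, 10 and 40 from left to right, and the dotted line marks a 2-fold fall.

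In the cytokinesis group ECT2, the exchange factor that switches on RhoA at the cleavage furrow, moved most. ECT2 ranged from 190.0 to 253 at E5, from 89.3 to 194 at E7, from 84.7 to 117 at E10 and from 10.6 to 46.9 at E14. It fell from E10 to E14 (-1.90, SE 0.46, adjusted p = 0.0381), a step that rests in part on the E14 replicate 3 signal of 10.6. That call was lost when E14 replicate 3 or any of the E5 or E10 arrays was left out. ANLN, anillin, the scaffold of the contractile ring, had signals of 731, 954 and 897 at E5, 732, 789 and 388 at E7, 493, 354 and 393 at E10, and 249, 125 and 353 at E14. ANLN was spread widely at E14, with replicate 2 lowest, and fell from E5 to E14 with a log2 change of -1.94 (SE 0.34, adjusted p = 0.000485). RACGAP1, the partner of KIF23, went from 306 to 389.5 down to 87.5 to 165 over the same days (-1.58, adjusted p = 0.000228).

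All 4 chromosome condensation genes fell from E5 to E14, none in a single step. SMC2, a core of condensin, had signals of 1301, 1449 and 854 at E5, 1465, 797 and 1180.3 at E7, 695, 548 and 568 at E10, and 281, 428 and 312 at E14. SMC4, the partner in that core, had signals of 566, 610.3 and 700.0 at E5, 556, 629 and 433 at E7, 417, 351 and 412 at E10, and 192, 241 and 219 at E14. The arrays of both genes separated at the last 2 steps. Their changes from E5 to E14 were -1.81 (SE 0.26, adjusted p = 0.000111) for SMC2 and -1.52 (SE 0.20, adjusted p = 4.45e-05) for SMC4. TOP2A, the topoisomerase that untangles sister DNA, went from 699 to 872 down to 179.5 to 386, and NCAPG, a condensin subunit, from 371 to 383 down to 99.2 to 164. The log2 changes were -1.49 for TOP2A (adjusted p = 0.000705) and -1.58 for NCAPG (adjusted p = 0.000131).

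At anaphase onset CDC20, the activator of the anaphase promoting complex, had signals of 1247, 1382 and 1288 at E5, 1117, 1144 and 546 at E7, 553, 486 and 480.2 at E10, and 212, 268 and 302 at E14. E7 replicate 3, at 546, lay within the range of E10, while the other E7 arrays stood between E5 and E10, and the log2 change from E5 to E14 was -2.34 (SE 0.25, adjusted p = 1.21e-05). Securin, annotated as PTTG2, which holds separase off until anaphase, had signals of 1382, 1575 and 1101 at E5, 1317, 1144 and 687 at E7, 696, 772 and 538 at E10, and 494, 508 and 517 at E14. Its E14 arrays lay close together, below all arrays of the other stages. Securin fell over the whole period (-1.40, SE 0.24, adjusted p = 0.000419) with no single step called.

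The falls were spread over the 3 steps. From E5 to E7, 1 of the 43 genes fell (KIF2C), beside 0.256% of all genes, and all 43 log2 changes were negative, as were those of 53.5% of all genes. The arrays of 16 genes separated downward, beside 12.2% of all genes, and the median log2 change was -0.39 (all genes -0.04). Without E7 replicate 3 the median was -0.24, 39 changes were negative and no gene was called, and leaving out any of the 3 E5 arrays also left KIF2C uncalled. From E7 to E10, 4 of 43 fell (CENPE, KIF4B, TTK and KIF11), beside 0.712% of all genes, 7 passed the adjusted p alone, beside 1.01%, and 22 separated downward, beside 10.2%. The median was -0.57 (all genes 0.04). Without E7 replicate 3 the count was 10, beside 1.15% of all genes, the median was -0.79, and AURKB, BIRC5, CDC20, CDK1, CENPH and KIF20A joined the other 4. Without E10 replicate 3 the count was 2, beside 0.323% of all genes. CENPE and KIF4B were called by their brightest probe sets whichever array was left out. In contrast, TTK lost its call without E7 replicate 1 or 2 or any E10 array, and KIF11 without E7 replicate 2 or E10 replicate 2 or 3. From E10 to E14, 10 of 43 fell (NUF2, ECT2, KIF20A, CCNA2, AURKB, KIF15, MAD2L1, BUB1B, CCNB1 and CDK1), beside 1.64% of all genes, 13 passed the adjusted p alone, beside 2.20%, and 33 separated downward, beside 15.8%. The median was -0.77 (all genes -0.03). Leaving out E10 replicate 1 gave 5 (0.579% of all genes), leaving out E10 replicate 2 gave 4 (0.49%), and leaving out E14 replicate 3 gave 6 (1.35%). AURKB, CCNA2, KIF20A and NUF2 were called by their brightest probe sets whichever array was left out. Each of the other 6 lost its call without at least 1 array. CCNB1, CDK1 and ECT2 each lost it in several fits, among them those without E5 replicate 1 or 3, E10 replicate 1 or 2, or E14 replicate 3. No gene rose in any step, and none reached an unadjusted p under 0.05 in the upward direction.

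No gene was called in 2 steps, 15 were called in 1, and 25 of the 40 genes that fell from E5 to E14 were called in none. Without E7 replicate 3, AURKB, CDK1, KIF20A and TTK were called both from E7 to E10 and from E10 to E14, 13 genes were called in 1 step, and 23 of the 40 in none. KIF20A was called in both of those steps without E10 replicate 1, AURKB without E10 replicate 2 and TTK without E14 replicate 2. Among all genes that fell from E5 to E14, the share called in 1, 2 or no steps was not counted. The largest drop lay between E10 and E14 for 27 genes, between E7 and E10 for 13, and between E5 and E7 for 3, a split that became 20, 21 and 2 without E7 replicate 3. Without that array 17 genes separated downward from E5 to E7, beside 16.2% of all genes, and 34 from E7 to E10, beside 23.7%. These intervals differ in length and successive steps share the arrays of the stage between them. The split of the largest drops was not counted over all genes. When the difference between the last 2 steps was tested as a contrast, none of the 43 passed an adjusted p under 0.05 by limma, while 6 had an unadjusted p under 0.05. Of all 8988 genes, 30 passed with a negative and 16 with a positive difference (last step minus the step before). The 6 were CCNA2 (unadjusted p = 0.00209), NUF2, TPX2 and KIF15, with the more negative change in the last step, and KIF4B and CENPE, with the more negative change from E7 to E10. The adjusted p was 0.130 for CCNA2 and at least 0.337 for the others. The difference between the first 2 steps gave 0 of the 43 at an adjusted p under 0.05 and 2 at an unadjusted one. Without E7 replicate 3 neither contrast gave a gene at an adjusted p under 0.05, and at an unadjusted one they gave 1 (CCNA2) for the last 2 steps and 9 for the first 2. For none of these contrasts was the share of all genes at an unadjusted p under 0.05 counted. Whether the unadjusted counts set the 43 apart from other genes is therefore not known.

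**Figure D3:**
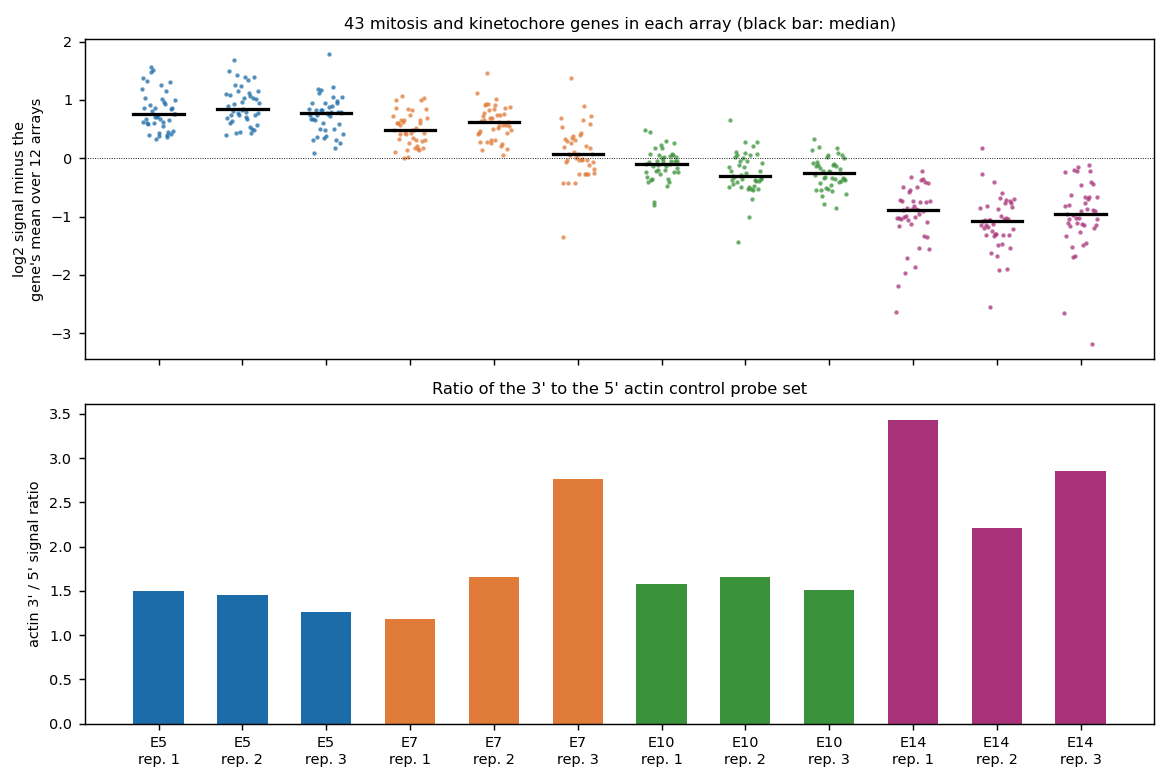
Upper panel, log2 signal minus each gene's mean over the 12 arrays (y axis) for the 43 genes in each array (x axis), with the median as a bar. Lower panel, the 3′ to 5′ actin signal ratio of the same arrays, which was highest in the 3 E14 arrays and E7 replicate 3. The GAPDH ratio, also highest in the 3 E14 arrays, is not drawn. The medians run from 0.75 to 0.84 at E5 to -1.07 to -0.89 at E14, and E7 replicate 3 is the lowest of its stage at 0.07.

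Taken by array, the median centred log2 signal of the 43 genes was 0.75, 0.84 and 0.77 in the E5 CAMs and 0.49, 0.61 and 0.07 in the E7 CAMs. It was -0.10, -0.31 and -0.25 at E10 and -0.89, -1.07 and -0.95 at E14. The 4 stages did not overlap in this median, and E7 replicate 3 was the array nearest to the following stage. In that array 33 of the 43 genes had their lowest signal of the stage. At E14, replicate 2 was lowest for 27 genes, and its actin ratio of 2.21 was the lowest of that stage. Its GAPDH ratio of 1.2044 lay between those of the other E14 arrays. How many of all genes were lowest in these arrays was not counted.

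Further probe sets gave a second reading for part of the genes. The 43 genes have 82 probe sets on the array, 70 of them tested, and 27 tested ones besides the brightest read 18 genes. From E5 to E14, 25 of these 27 fell and none rose, with a median log2 change of -2.08. The share that fell among all tested probe sets besides the brightest was not counted. The exceptions were a dim probe set of CENPF, at -0.64 (adjusted p = 0.308), and one of KIF20A, at 0.74 (adjusted p = 0.158), whose mean signals over the 12 arrays were 32.8 and 49.1. The step of the fall was not the same in all probe sets of a gene. For TPX2 the brightest fell only over the whole period, whereas 2 others fell from E10 to E14 (adjusted p = 0.0139 and 0.0383), one of them by a log2 change of -1.10. A further probe set of TOP2A fell in that step as well (-1.38, adjusted p = 0.000611), a step in which the brightest changed by -0.84 (adjusted p = 0.106). For KIF4B, a probe set besides the brightest fell from E10 to E14 (-1.02, adjusted p = 0.0205) and not from E7 to E10. For TTK 2 others fell from E7 to E10 (-1.30 and -1.10), as did the brightest, and for CENPE 1 other did (-1.18). For NDC80 a probe set besides the brightest fell from E7 to E10 (-1.20, adjusted p = 0.0423). The one other probe set of KIF11 passed the adjusted p in that step but not the fold (-0.98, adjusted p = 0.0242). From E10 to E14, the genes that fell by their brightest probe set and had others tested were NUF2, ECT2, KIF15 and KIF20A, and none of these others was called. The changes were -0.73 for NUF2 (adjusted p = 0.158), -0.49 for ECT2 (adjusted p = 0.568), -0.85 and -0.99 for KIF15 (adjusted p = 0.225 and 0.0582) and 0.68 for KIF20A (adjusted p = 0.369). One of these KIF15 probe sets changed by -1.18 from E7 to E10 (adjusted p = 0.0853). No other probe set of KIF2C was called from E5 to E7.

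Other mitosis genes, a list of 67 names that holds none of the 43, had 48 genes tested. From E5 to E14, 37 fell, beside 14.1% of all genes, and 1 rose, with a median log2 change of -1.58. CENPU, a further inner kinetochore protein, went from 164 ± 5.32 to 16.3 ± 10.7 (mean ± SD, n = 3), a change of -3.70 (SE 0.55, adjusted p = 0.000138). MELK, a kinase of dividing cells, went from 356 ± 44.7 to 44.6 ± 19.1, CENPP, also of the inner kinetochore, from 818 ± 121 to 132 ± 18.2, and SKA3, which helps kinetochores track microtubules, from 840.2 ± 72.3 to 162 ± 22.5. The 1 that rose, named after its values were seen, was KIFC1, a minus-end kinesin that focuses spindle poles, from 38.7 ± 12.4 to 91.8 ± 11.9 (1.29, SE 0.46, adjusted p = 0.0365). KIFC1 did not pass the filter on low signals at E5 or E7, so that its rise is no support. From E7 to E10, MIS18A, which helps load the centromeric histone, and CENPL fell, with log2 changes of -1.43 (SE 0.20, adjusted p = 0.00161) and -1.09 (SE 0.25, adjusted p = 0.0236). From E10 to E14, CKAP2, MELK, CDCA3 and KNTC1 fell, with log2 changes of -1.33, -1.29, -1.18 and -1.06.

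Complexes that act on the same chromosomes were read by few genes. Beside the 14.1% of all genes that fell from E5 to E14, their counts were not tested. Of 11 tested subunits of the anaphase promoting complex, 3 fell from E5 to E14 (median -0.75), namely ANAPC4 (-1.93, SE 0.27, adjusted p = 0.000105), CDC16 (-1.87, SE 0.22, adjusted p = 2.02e-05) and ANAPC1 (-1.48, SE 0.41, adjusted p = 0.0105), and none rose (0 at an unadjusted p under 0.05). Of 9 cohesin genes, whose ring holds the sisters together, none fell or rose (median -0.55), although limma gave 2 lower and 1 higher at an adjusted p under 0.05 without a limit on the fold, and 5 lower and 1 higher at an unadjusted p under 0.05. Differences between these lists and the 43 genes were not tested.

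DNA replication genes, which act in the preceding S phase, mostly moved in the same direction from E5 to E14. Of 47 tested, 32 fell from E5 to E14, beside 14.1% of all genes, and none rose (0 at an unadjusted p under 0.05). Their median log2 change was -1.40, with a range of -2.73 to 0.35, against a range of -3.23 to -0.69 for the 43. CDC45, part of the replicative helicase, went from 949.7 ± 70.4 to 143 ± 15.1, and MCM6, a ring subunit of that helicase, from 958 ± 191 to 165 ± 5.20. TYMS, which makes thymidylate, went from 1464 ± 157 to 268 ± 52.6 and RPA3, of the single-strand binding complex, from 1440.1 ± 296 to 289 ± 37.3. No replication gene was called by limma in the first 2 steps, where 10 and then 13 were lower at an unadjusted p under 0.05. CDC45, MCM6 and DTL, a factor that limits replication to once per cycle, fell from E10 to E14, with log2 changes of -1.34 (SE 0.20, adjusted p = 0.00265), -1.38 (SE 0.23, adjusted p = 0.0055) and -1.03 (SE 0.24, adjusted p = 0.0319).

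**Figure D4:**
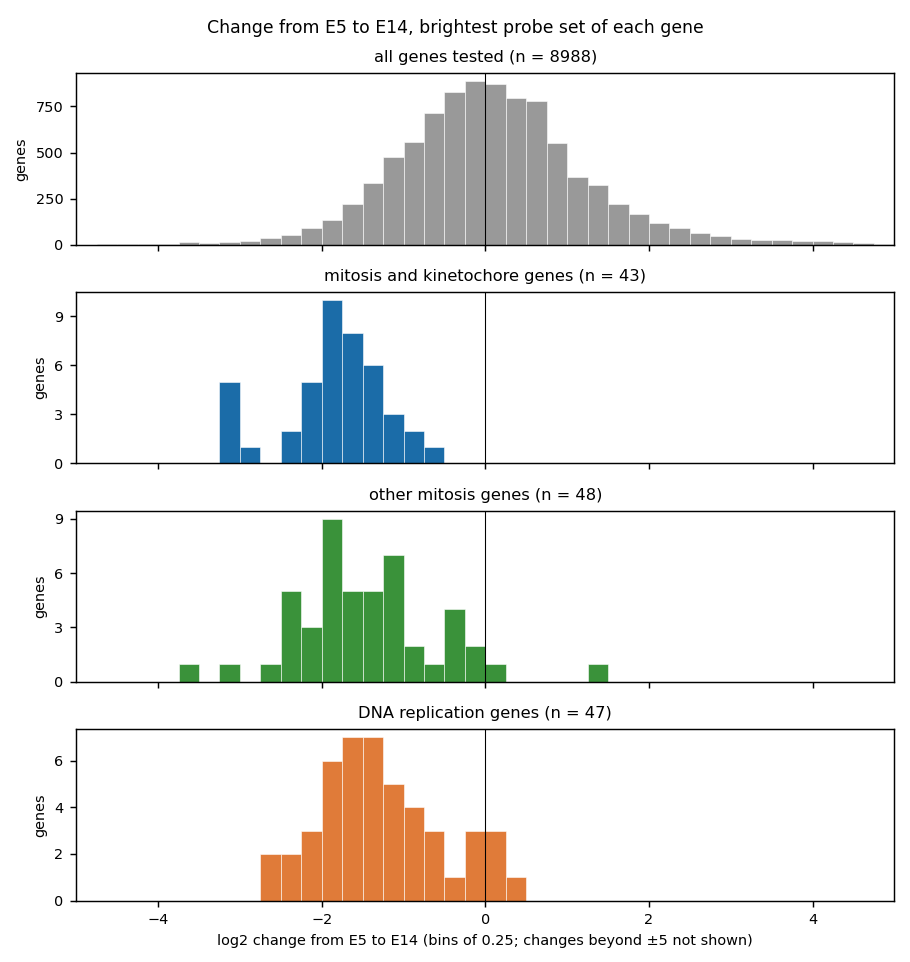
Number of genes (y axes) per bin of log2 change from E5 to E14 (x axis) for all 8988 genes tested, the 43 mitosis and kinetochore genes, 48 other mitosis genes and 47 DNA replication genes. All 43 lie below 0, with a median of -1.79, while the distribution of all genes is centred at 0.02.

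Regulators upstream of mitosis were mixed. Of 20 tested G1 cyclin, E2F and RB genes, 7 fell and 1 rose from E5 to E14 (median -0.49), while 14.1% of all genes fell. The largest falls were in E2F8, E2F7, RBL1 and LIN9, with E2F8 and E2F7 known as repressors of cell cycle genes and LIN9 as a core of the complex that switches mitotic genes on or off. Their log2 changes were -1.76 (SE 0.19, adjusted p = 1.08e-05), -1.70 (SE 0.33, adjusted p = 0.00103), -1.66 (SE 0.20, adjusted p = 2.51e-05) and -1.52 (SE 0.31, adjusted p = 0.00149). E2F1, an activator named after its values were seen, rose from 229 ± 21.9 to 515 ± 20.4 (1.17, SE 0.20, adjusted p = 0.000395). Of 14 tested cell cycle brakes 4 rose and 3 fell (median 0.23). The share of all genes that rose was not counted, and neither list was tested against all genes. CDKN1A, the inhibitor p21, rose from 32.9 ± 11.2 at E5 through 52.6 ± 25.9 and 104 ± 29.1 to 209 ± 30.2 at E14 (2.73, SE 0.39, adjusted p = 0.000102). It did not pass the filter on low signals at E5. CDKN1B, the inhibitor p27, rose from 323 ± 7.52 to 1134 ± 103 (1.81, SE 0.16, adjusted p = 2.37e-06), and BTG2, an antiproliferative factor, from 408 ± 59.6 to 2106 ± 662 (2.33, SE 0.27, adjusted p = 2.03e-05), the last of these already from E7 to E10 (1.68, SE 0.27, adjusted p = 0.00365). CDKN2B, an inhibitor of CDK4 and CDK6, fell from 207 ± 90.3 to 22.6 ± 11.8 (-3.25, SE 0.55, adjusted p = 0.000402). CDKN2B passed the filter on low signals through E5 alone, so that its fall is no support. The other calls of this list were BTG1, which rose, and WEE1 and CDKN3, which fell, all 3 named after their values were seen.

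Of the 43 genes, CENPH, CENPK and SMC2 lie on the Z chromosome in the RefSeq annotation, of which male birds carry a pair and females a single copy. HINTW, a gene of the female W chromosome, was above a signal of 1000 in E5 replicate 3, E7 replicate 2, all 3 E10 arrays and E14 replicates 1 and 3, and was at 2.59 to 110 in the other 5. SMC2 was lower in the arrays with high HINTW at every stage that held both kinds, with 854 against 1301 and 1449 at E5, 797 against 1465 and 1180 at E7, and 281 and 312 against 428 at E14. CENPH and CENPK showed this order at E5, where E5 replicate 3 had 456 and 442, but not at E7 or E14. The slope of SMC2 on log2 HINTW within stages was -0.07 (SE 0.02, unadjusted p = 0.000607, adjusted p = 0.150 by limma over all tested probe sets). Of the 43 genes, 5 had an unadjusted p under 0.05 for this slope, and 0 passed the adjusted p. Besides SMC2 they were NUF2, also at -0.07, and KIF15, INCENP and CENPE with positive slopes, none of which lies on the Z chromosome. With HINTW as a covariate the changes from E5 to E14 were -1.87 for CENPH, -1.74 for CENPK and -1.60 for SMC2, so that all 3 still fell, while SMC2 then also fell from E10 to E14 (-1.09, adjusted p = 0.00788). All E10 arrays were high in HINTW, so that the steps into and out of E10 carry an unequal mix of CAMs for Z-linked genes.

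**Figure D5:**
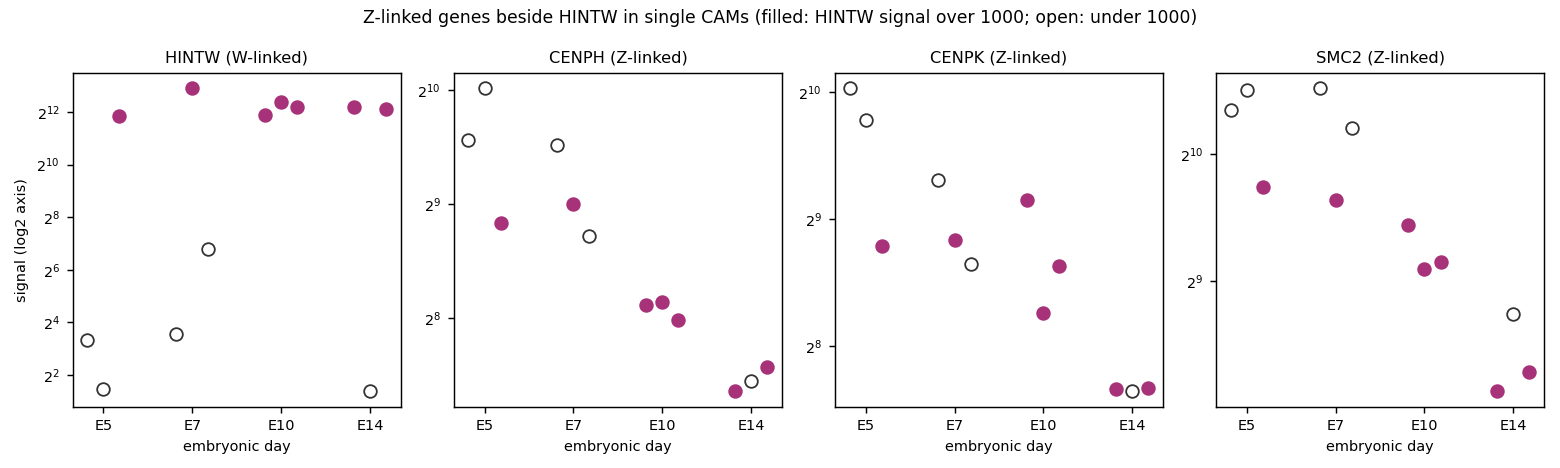
Signal (y axes, log2 scale) of HINTW and of the Z-linked genes CENPH, CENPK and SMC2 in single CAMs by embryonic day (x axes), filled where HINTW exceeded 1000. At E5, E7 and E14 the filled SMC2 points, at 854, 797, 281 and 312, lie below the open ones of their stage.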

How the data were processed

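RNA of 12 whole CAMs was hybridized to Affymetrix chicken arrays. What the authors deposited are probe set intensities (signals), made with GCOS 1.2, scaled per array to a target of 100, linear, and without detection calls. No genome build entered these values. The files hold 38535 probe sets, of which 96 are controls. Of the other 38439, the platform annotation gives 27168 a single gene symbol, 177 several and 11094 none. Synonyms and chromosomes came from RefSeq (assembly GRCg7b).

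Signals were taken to log2, and 17726 probe sets with 35 or more in all 3 arrays of at least 1 stage were tested with limma 3.58.1 in R 4.3.3. All 12 arrays entered 1 model with 4 stage means, and variances were moderated along a trend in intensity. The 3 successive steps and E5 to E14 were compared. P values were adjusted over all tested probe sets (Benjamini-Hochberg), and calls needed an adjusted p under 0.05 together with more than a 2-fold difference. "Rose" and "fell" stand for such calls. Each gene was read by its probe set with the highest mean signal, and shares of all genes refer to the 8988 genes whose brightest probe set was tested. The study's own test, SAM, was not run here. Replicates are separate embryos.

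Members and lists were chosen with earlier results of these data known. Genes given array by array are those called in at least 1 comparison, at most 24 in order of their smallest adjusted p, and the brightest gene of each role group; other genes are given by range, and of other lists at most 4 called genes per comparison by size. Genes outside this rule are named as such.

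Alternatives changed the filter, an offset or floor for low signals, the scaling, the variance moderation, the arrays in the model, a block for replicate numbers, HINTW as a covariate, the fold limit, the probe sets counted, and each array left out in turn. The contrasts between successive steps, these and the counts over the steps without E7 replicate 3, and the slope on HINTW were added after seeing the data. On simulated data for E10 to E14, with 17726 probe sets of which 200 were changed, 56 of 100 changed 3-fold and 78 of 100 changed 6-fold were found, with 3 false calls among 137. The median SE of a log2 change was 0.33 with 3 arrays per stage, which limits the precision. Of tested probe sets, 21.1% had a signal under 20. Python 3.11.15 drew the figures.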

Additional observations from a re-analysis of the deposited data

How the results depend on the processing

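From E5 to E14 the count of falling genes stayed at 38 to 43 of 43 under the alternatives. It was 39 to 41 when single arrays were left out, beside 12.4% to 14.7% of all genes. No gene rose in any comparison under any alternative or with any array left out, and every median of the 43 stayed negative. An offset of 16 moved the median log2 change from E5 to E14 to -1.67. The counts of single steps were less steady. From E7 to E10, where the count was 4, quantile normalization and the adjusted p with no limit on the fold each gave 7, and variance moderation without trend and a model of the 6 arrays of both stages each gave 2. From E10 to E14 moderation without trend gave 5 in place of 10. The adjusted p alone was met by 1.01% of all genes from E7 to E10. For quantile normalization, moderation without trend, the model of 6 arrays and the count of 38 from E5 to E14, the share of all genes was not counted. Leaving out single arrays gave 0 to 1 from E5 to E7, 2 to 10 from E7 to E10 and 4 to 11 from E10 to E14. The shares of all genes called in the same fits were 0.089% to 0.323%, 0.323% to 1.15% and 0.49% to 2.34%. The causes of these shifts were not tested. The calls that follow are those of the brightest probe sets. Of the calls of genes given array by array, those kept under all 22 alternatives were 29 of 30 from E5 to E14 (the other was TPX2), 4 of 9 from E10 to E14 (AURKB, CCNA2, KIF20A and NUF2), 2 of 4 from E7 to E10 (CENPE and KIF4B) and 0 of 1 from E5 to E7. Quantile normalization and equal medians left the median log2 change of all genes between -0.08 and 0.03 in every comparison.

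Nothing in the sources says that equal replicate numbers pair CAMs, and deviations of same-numbered arrays of different stages correlated at -0.14 to 0.07. With a replicate block the counts were 1, 4, 10 and 40, as without it. Signals under 20, where log2 values are unsteady, occurred in SPC25, CENPE and ECT2.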
